A study of Homo sapiens with 18 samples.

Results

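Emerin, encoded by EMD, and 9 partner genes of the nuclear lamina were followed through 18 RNA sequencing libraries of 3 breast epithelial lines, as 10 of the 35933 genes with values. The partners were the lamin genes LMNA, LMNB1 and LMNB2, the lamin B receptor gene LBR, SUN1, SUN2, BANF1, TMPO and LEMD3. The set was chosen by the near loss of EMD in the knockdown arm of MCF10AT1, so EMD is described there and was not tested. All 10 symbols had values in the table.

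MCF10A cells are non-tumorigenic and immortalized spontaneously from breast epithelium. MCF10AT1 cells are MCF10A with a stably integrated mutated HRas, and passing those through serial xenografts in mice gave MCF10CA1H. Each line had a control arm, labelled Control Negative CRISPR, which carried a control guide construct, and an arm labelled METTL3 CRISPR knockdown, in which Cas9 was aimed at exon 1 of METTL3, the gene of the m6A methyltransferase. There were 3 libraries per arm, with the replicate letters a, b and c. All arms had been through plasmid transfection, sorting for mCherry and selection of single-cell clones. Each group is thus 1 CRISPR line, and the p-values measure the spread between its libraries, not between clones. A clone and its treatment cannot be told apart in this design.

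The nuclear lamina is a mesh of intermediate filament proteins, the A-type and B-type lamins, on the inner face of the nuclear envelope. Emerin, LAP2 (from TMPO) and MAN1 (from LEMD3) sit in or near the inner nuclear membrane and share the LEM domain, a fold that binds BAF, the small DNA-bridging protein encoded by BANF1. LBR anchors heterochromatin and B-type lamins to the membrane. SUN1 and SUN2 span the inner membrane and join nesprins of the outer membrane to form the LINC complex, which links the nucleus to the cytoskeleton. In epithelial cells this layer shapes and stiffens the nucleus, and inherited loss of emerin causes a form of Emery-Dreifuss muscular dystrophy.

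The summed normalized counts of a library ranged from 21347352 to 31681834, and the depth per gene is unknown. METTL3 itself, the targeted gene, had 752, 687 and 459 normalized counts in the MCF10A controls and 939, 981 and 510 in the arm labelled knockdown. As a share of the control mean, that arm had 128% for MCF10A, 88.5% for MCF10AT1 and 70.9% for MCF10CA1H. The METTL3 mRNA difference passed the test only in MCF10CA1H (log2 fold change -0.49, SE 0.12, limma adjusted p = 0.0234). It no longer passed without control library c (limma adjusted p = 0.0906) or knockdown library b (0.0854). Nor did it pass in a fit without intensity trend (limma adjusted p = 0.0742) or in a fit of all 18 libraries together (0.501). The METTL3 transcript therefore does not check the knockdown labels of MCF10A and MCF10AT1, and directions below are those of the labels. Libraries c of MCF10AT1 stood apart from a and b for several members in both arms, as the values below show.

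EMD (ENSG00000102119; chromosome X, 154379273 to 154381574, plus strand, hg38) was present in 9 libraries and near 0 in the other 9. In MCF10A it had 1533, 1065 and 1182 normalized counts in the controls and 1456, 1110 and 1363 in the knockdown arm. In MCF10AT1 the controls had 1400, 1582 and 1181 and the knockdown libraries 1, 0 and 3.31. In MCF10CA1H the controls had 1.23, 0 and 0, and the knockdown libraries 1.19, 0 and 1.33. The loss was thus not particular to an arm labelled knockdown, since the control arm of MCF10CA1H had it as well. In order of their means, MCF10AT1 controls (1388 ± 201, SD, n = 3), MCF10A knockdown (1310 ± 179, SD, n = 3) and MCF10A controls (1260 ± 244, SD, n = 3) overlapped each other. MCF10AT1 knockdown (1.44 ± 1.70, SD, n = 3), MCF10CA1H knockdown (0.84 ± 0.73, SD, n = 3) and MCF10CA1H controls (0.41 ± 0.71, SD, n = 3) overlapped each other too, far below. The mean in the MCF10AT1 knockdown arm was 0.1035% of its control.

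On the scale of log2(normalized count + 1), the EMD fold change in MCF10AT1 was -9.39, given as a description. In MCF10A the difference was 0.06 (95% interval -0.37 to 0.50, limma adjusted p = 0.902). Between control arms, EMD was lower in MCF10CA1H than in MCF10A (log2 difference -9.90, SE 0.35, limma adjusted p = 8.7e-07), at 0.03254% of the MCF10A mean. Within MCF10CA1H it was under the minimum mean of 10 and was not tested. Values this close to 0 make the size of the log2 difference depend on the constant added.

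**Figure D1:**
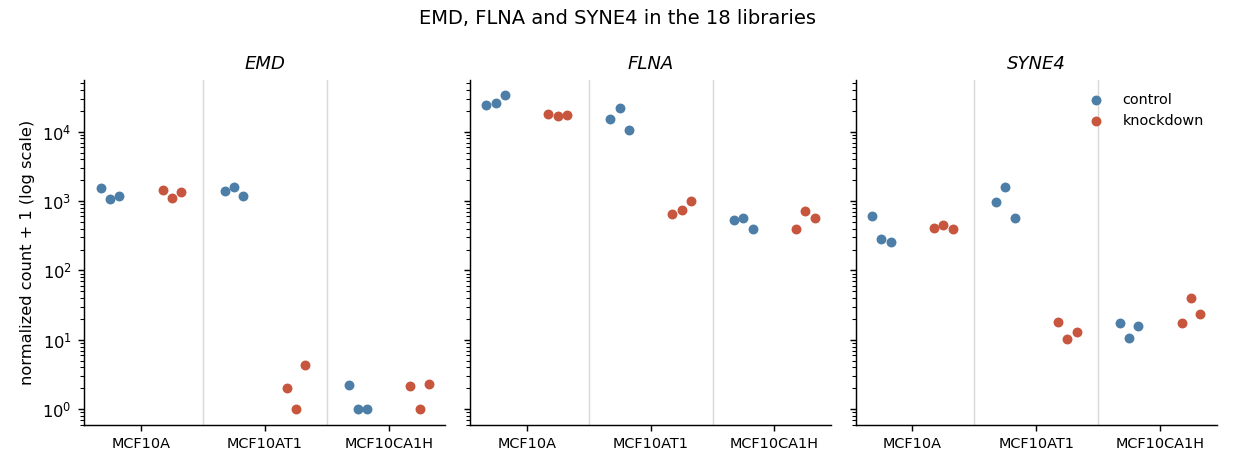
Normalized count plus 1 (log scale) of EMD, its chromosome neighbour FLNA and the nesprin gene SYNE4 in each of the 18 libraries, by line, with control libraries in blue and knockdown-labelled libraries in red. EMD lies between 1065 and 1582 normalized counts in the MCF10A libraries and MCF10AT1 controls and at or under 3.31 in the other 9 libraries, and FLNA and SYNE4 are low in the same 9.

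FLNA, the gene of the actin cross-linker filamin A, is the nearest gene to the left of EMD, 4.639 kb away and on the opposite strand. It had 24494, 25786 and 33426 normalized counts in the MCF10A controls and 17932, 16870 and 17235 in the knockdown arm. In MCF10AT1 it went from 15285, 21996 and 10433 in the controls to 646, 737 and 1001. In MCF10CA1H it had 534, 575 and 396 in the controls and 394, 710 and 577 in the knockdown arm. The libraries with the least FLNA were the same 9 in which EMD was near 0. FLNA differed from control in MCF10AT1 (log2 fold change -4.28, SE 0.34, limma adjusted p = 1.7e-04), and the MCF10CA1H controls were below those of MCF10A (log2 difference -5.80, SE 0.28, limma adjusted p = 5.1e-06). FLNA fell to 5.00% of control in MCF10AT1, a share larger than that of EMD, and it remained measurable in every library, with a lowest value of 394 normalized counts. The next gene to the right, RPL10, encodes a ribosomal protein and lies 8.381 kb away. Its mean was 76349 in the MCF10AT1 controls and 88732 in the knockdown arm, and 45018 in the MCF10CA1H controls.

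The other neighbours reported were HCFC1, TMEM187 and IRAK1 to the left, between 359 and 408 kb away, and ENSG00000280195, DNASE1L1, TAFAZZIN and ATP6AP1-DT to the right, between 15.3 and 42.8 kb away. None of these 7 passed the test in MCF10AT1, with log2 fold changes between -0.07 and 0.70. DNASE1L1, an endonuclease gene, was called in MCF10CA1H (log2 fold change 1.03, SE 0.15, limma adjusted p = 0.00184). RPL10 has many processed pseudogenes, and pseudo-alignment could have divided its reads among them.

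**Figure D2:**
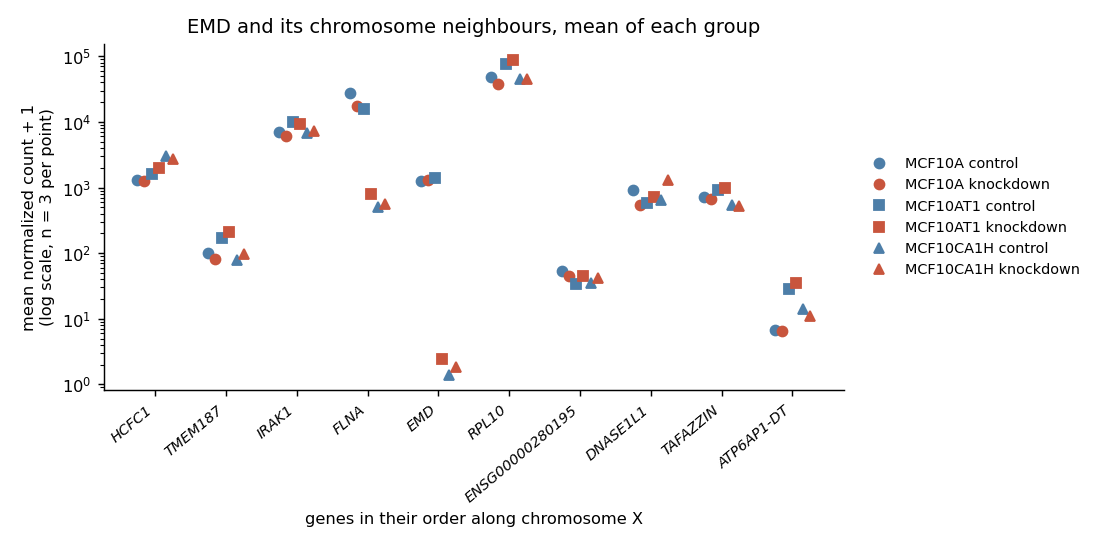
Mean normalized count plus 1 (log scale, 3 libraries per point) of EMD and 9 of its nearest measured genes, 4 to the left and 5 to the right, in their order along chromosome X, with the line as the marker shape and the arm as the colour. Of the genes plotted, only FLNA and EMD separate the MCF10AT1 knockdown arm and both MCF10CA1H arms from the other groups by more than a factor of 10.

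The sequences upstream of EMD and FLNA are shown because these adjacent genes, which face away from each other, were low in the same libraries. They come from RefSeq on GRCh38.p14. The EMD stretch is X:154379045-154379272 on the plus strand (228 bases, up to the gene's start), and the FLNA stretch is X:154374635-154374884 on the minus strand (250 bases). Both are written 5′ to 3′ on the gene's own strand, and capitals mark the GC box, GGGCGG or its reverse complement CCGCCC.
EMD: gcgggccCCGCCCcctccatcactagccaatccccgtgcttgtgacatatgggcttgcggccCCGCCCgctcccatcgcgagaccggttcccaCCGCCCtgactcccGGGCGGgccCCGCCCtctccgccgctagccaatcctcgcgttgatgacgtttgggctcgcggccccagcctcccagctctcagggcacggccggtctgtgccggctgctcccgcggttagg
FLNA: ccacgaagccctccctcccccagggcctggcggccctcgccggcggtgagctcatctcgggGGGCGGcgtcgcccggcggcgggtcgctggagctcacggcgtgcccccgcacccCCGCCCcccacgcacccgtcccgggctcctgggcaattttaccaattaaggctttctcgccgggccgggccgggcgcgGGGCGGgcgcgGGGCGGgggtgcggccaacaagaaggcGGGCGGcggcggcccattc
Each stretch held 5 GC boxes. EMD's had 25 CpG dinucleotides and 72.4% G and C, and FLNA's had 35 and 78.4%. The motif holds a CpG itself, so both counts overlap. EMD's own promoter of 250 bases held 6 GC boxes, 31 CpG dinucleotides and 74% G and C. Among 27305 promoters of that length, 42.3% held the motif on either strand, 4.204% held it 5 times or more, and the median CpG count was 11. Of the 10 members 9 had a promoter in the table (SUN1 is the exception) and 6 of them held the motif: EMD, LMNA, LEMD3, TMPO, LMNB2 and SUN2.

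The 9 partners were examined in MCF10AT1 for whether the lamina genes followed EMD there. None of the 9 passed the test in either direction, against 13.0% of the 16050 genes tested in that line (7.07% higher and 5.96% lower), and 1 of 9, SUN1, had an unadjusted p under 0.05. For a list of 9 genes, no call at all is near that share and does not settle the question. With the replicate letter as a block, SUN1 and BANF1 passed (log2 fold changes -0.97 and 0.95, limma adjusted p = 0.0198 and 0.0165). The block also raised the calls over all genes from 2091 to 3939. The median log2 fold change of the partners was -0.27, beside 0.02 over all genes tested. The intervals were wide, and no partner is shown to be at the same level in both arms. No partner showed a loss of the kind seen for EMD: the lowest knockdown library of any partner was LEMD3 in library b, at 61.3 normalized counts. The LEMD3 controls had 174, 63.1 and 366, and its knockdown mean was 48.25% of the control mean.

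LMNA, the gene of lamins A and C, had 11377, 15531 and 8273 normalized counts in the MCF10AT1 controls and 20125, 18934 and 10180 in the knockdown arm. These ranges overlapped, and the log2 fold change was 0.47 (95% interval -0.39 to 1.32, limma adjusted p = 0.462). The B-type lamin gene LMNB1 had 592, 545 and 644 in the controls and 785, 716 and 204 in the knockdown arm. Knockdown library c set the sign of the LMNB1 difference, -0.29 with it and 0.34 without it (limma adjusted p = 0.756 and 0.482). LMNB2 had 2630, 2565 and 2910 in the controls and 3319, 3398 and 2246 in the knockdown arm, again with library c low and the others above every control (log2 fold change 0.12, limma adjusted p = 0.804).

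SUN1 had 1610, 1145 and 3046 normalized counts in the MCF10AT1 controls and 934, 734 and 1086 in the knockdown arm. All knockdown libraries lay below all controls, by a small margin over control library b (log2 fold change -0.97, 95% interval -1.86 to -0.08, limma adjusted p = 0.147). SUN2, the other SUN gene, had 1672, 1074 and 2120 in the controls and 1910, 3052 and 3347 in the knockdown arm. Its ranges overlapped, and its difference pointed the other way (log2 fold change 0.79, 95% interval -0.02 to 1.59, limma adjusted p = 0.189). BANF1 had 2619, 3940 and 1444 in the controls and 6416, 5851 and 2840 in the knockdown arm. Library c was the lowest of each arm for BANF1, and the log2 fold change was 0.95 (95% interval -0.09 to 1.98, limma adjusted p = 0.218). BANF1 and TMPO have processed pseudogenes, which could have taken part of their reads. In a fit of all 18 libraries, SUN1, SUN2 and BANF1 passed at these same fold changes (limma adjusted p = 0.0109, 0.0138 and 0.0293), so the call rests on the estimate of the spread.

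LBR had 378, 481 and 1128 normalized counts in the MCF10AT1 controls and 651, 462 and 391 in the knockdown arm, with the high value in control library c (log2 fold change -0.27, 0.20 without that library). TMPO had 637, 383 and 1244 in the controls and 722, 458 and 365 in the knockdown arm, with the same library high (log2 fold change -0.44, 0.00 without it). LEMD3 had 174, 63.1 and 366 in the controls and 109, 61.3 and 121 in the knockdown arm, where the ranges overlapped (log2 fold change -0.77, -0.17 without control library c and -1.43 without control library b). With all 6 libraries their limma adjusted p was at least 0.484.

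**Figure D3:**
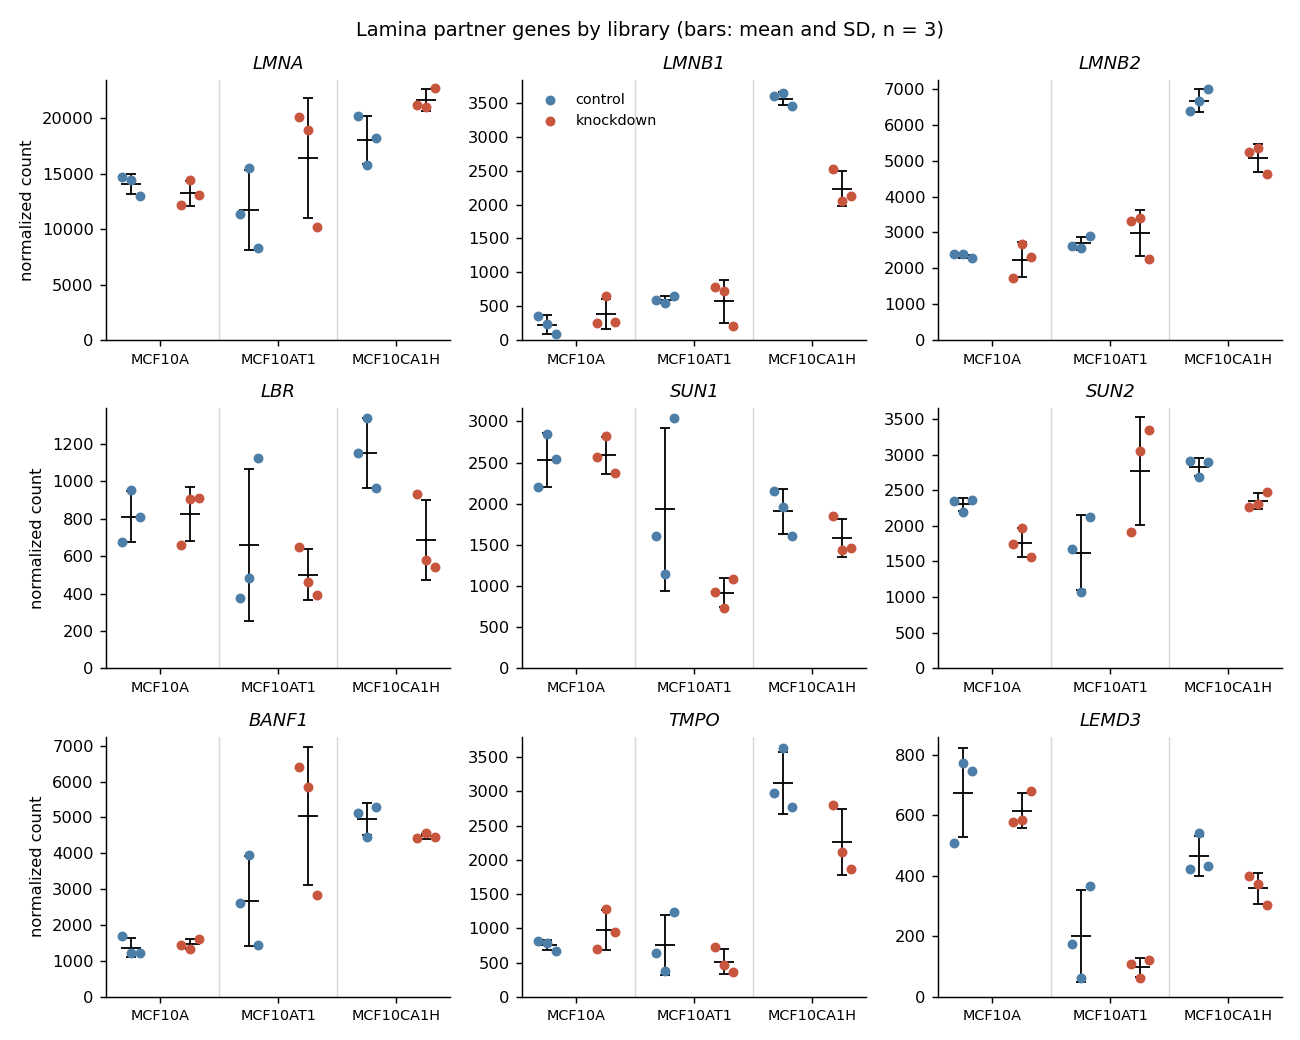
Normalized counts (linear axes from 0) of the 9 partner genes in each library, by line, with controls in blue and knockdown-labelled libraries in red; black marks give the mean and SD of 3 libraries. LMNB1, LMNB2 and TMPO stand highest in MCF10CA1H, and in MCF10AT1 the libraries of an arm spread widely.

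Markers of other states moved with the MCF10AT1 arms. Of the breast epithelial markers, basal and other, 5 of 10 were lower there (CDH1, EPCAM, KRT17, KRT5 and KRT14) and none higher. Over all genes tested 5.96% were lower and 7.07% higher. The summed level of the 10 epithelial markers overlapped, at 133963 to 215836 in the controls and 107100 to 202687 in the knockdown arm, and ITGB4 and TP63 had positive values short of the threshold (log2 fold changes 1.50 and 1.05, limma adjusted p = 0.104 and 0.336). CDH1, the gene of E-cadherin, had 3475, 2105 and 6138 normalized counts in the controls and 11.6, 31.7 and 79.2 in the knockdown arm. Of 7 fibroblast and mesenchymal markers tested, 4 were higher (FN1, THY1, COL3A1 and VIM) and none lower, beside the same shares. The summed level of the 10 listed mesenchymal markers was 3785 to 5132 in the controls and 118103 to 206507 in the knockdown arm. Unlike EMD, CDH1 was present in MCF10CA1H, at 2974 to 4179 in its 6 libraries. The part of these markers in the lamina values was not tested. Summed endothelial and leukocyte markers were at most 866.5 and 2007 in any library. PECAM1 reached 849 (MCF10AT1 control c) and CD68 2006 (MCF10A control c). ITGAM, TEK and KDR reached 89.7, 25.0 and 21.6, and CDH5, VWF, PTPRC and CD3E were at most 9.85.

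Among the LINC partners of the SUN proteins, the nesprin genes SYNE1, SYNE2 and SYNE4 passed the test in MCF10AT1, and SYNE3 did not (log2 fold change -0.29, limma adjusted p = 0.694). Of 8 LINC genes tested, 1 was higher and 2 were lower there, and SYNE2 was the single gene called, higher, in each of the other lines. Over all genes tested the shares called were 13.0% in MCF10AT1, 2.65% in MCF10A and 12.8% in MCF10CA1H, so the 1 of 8 in MCF10CA1H is near the background. SYNE4, encoding nesprin-4, an epithelial nesprin that binds kinesin, had 965, 1570 and 571 normalized counts in the MCF10AT1 controls and 16.9, 9.28 and 11.96 in the knockdown arm. In MCF10A it had 609, 282 and 258 in the controls and 403, 448 and 392 in the knockdown arm. The MCF10CA1H values were 16.5, 9.44 and 14.7 in the controls and 16.5, 38.8 and 22.4 in the knockdown arm. SYNE4 was thus low in the libraries in which EMD was near 0, and high in the others. The difference was -6.16 in MCF10AT1 (SE 0.48, limma adjusted p = 1.5e-04) and -4.64 between the MCF10CA1H and MCF10A controls (SE 0.45, limma adjusted p = 1.7e-04).

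The giant nesprins, which bind actin, moved in opposite directions in MCF10AT1. SYNE1 (nesprin-1) had 44.4, 23.9 and 24.7 normalized counts in the controls and 235, 230 and 214 in the knockdown arm (log2 fold change 2.89, SE 0.41, limma adjusted p = 0.00274). SYNE2 (nesprin-2) had 1425, 774 and 1595 in the controls and 186, 191 and 134 in the knockdown arm (log2 fold change -2.84, SE 0.36, limma adjusted p = 0.00159). In MCF10A and MCF10CA1H SYNE2 was higher in the knockdown arm instead (log2 fold changes 0.87 and 0.53, limma adjusted p = 0.0279 and 0.0246).

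Of 11 other LEM domain and inner nuclear membrane genes, 2 were higher and 1 lower in MCF10AT1. The same list had 1 lower for MCF10A and 2 lower for MCF10CA1H, beside the same background shares, and the MCF10CA1H count is near its share. LEMD1, a LEM domain gene, fell in MCF10AT1 (log2 fold change -3.31, SE 0.64, limma adjusted p = 0.0113), from 105, 225 and 104 normalized counts to 6.33, 10.9 and 28.2. It had 107.5 to 384 in the MCF10A libraries and 6.62 to 21.8 in those of MCF10CA1H, controls included. LEMD1 was thus lowest in the libraries in which EMD was near 0. TM7SF2, which encodes a sterol reductase related to the membrane domain of LBR, rose there (log2 fold change 1.93, SE 0.45, limma adjusted p = 0.0263). TMEM201, encoding the inner membrane protein SAMP1, rose in MCF10AT1 (0.96, limma adjusted p = 0.048) and fell in MCF10CA1H (-0.54, limma adjusted p = 0.00715). NEMP1, an inner nuclear membrane protein gene, also fell in MCF10CA1H (-0.63, limma adjusted p = 0.0145). NEMP2, its paralog, fell in MCF10A (-1.13, limma adjusted p = 0.0459).

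Genes that act on lamins and BAF were counted against the same shares, 2.65% in MCF10A, 13.0% in MCF10AT1 and 12.8% in MCF10CA1H. Of the 5 prelamin processing genes, which include the protease gene ZMPSTE24, none passed in any line, and 0 to 2 of 7 kinase and phosphatase genes did. VRK2, a kinase related to the BAF kinase VRK1, fell in MCF10AT1 (-1.40, limma adjusted p = 0.0299) and in MCF10CA1H (-0.78, limma adjusted p = 0.0071). VRK3 rose in MCF10CA1H (0.44, limma adjusted p = 0.0486). Of 11 chromatin and regulatory partners LMO7, which binds emerin, rose in MCF10CA1H (0.56, limma adjusted p = 0.0199), and of 12 nuclear pore genes NUP210, a pore membrane protein gene, rose in MCF10AT1 (1.36, limma adjusted p = 0.0253) and fell in MCF10CA1H (-0.61, limma adjusted p = 0.00216). No other gene of these groups passed in any of the 3 lines. A single call in a list of this length is near or under the share over all genes. Such calls describe the gene and not its group.

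In MCF10CA1H, where EMD was near 0 in both arms, 3 of the 9 partners were lower in the knockdown arm and none was higher. The background was 12.8% of the 15127 genes tested (7.91% higher and 4.85% lower). Of the calls 62.0% were higher, and 50.2% with every library brought to the same sum. The median log2 fold change of the partners was -0.38, beside -0.02 over all genes tested. LMNB1 went from 3603, 3647 and 3456 normalized counts to 2528, 2051 and 2134, without overlap (log2 fold change -0.68, SE 0.10, limma adjusted p = 0.00245). LMNB2 went from 6381, 6662 and 6997 to 5252, 5354 and 4637, also without overlap (log2 fold change -0.40, SE 0.09, limma adjusted p = 0.019). LBR went from 1150, 1338 and 966 to 935, 581 and 545, where the highest knockdown library came close to the lowest control (log2 fold change -0.78, SE 0.20, limma adjusted p = 0.0318). These are the receptor and the lamins of the B-type network.

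TMPO had 2971, 3632 and 2768 normalized counts in the MCF10CA1H controls and 2795, 2108 and 1869 in the knockdown arm, a difference short of the threshold (log2 fold change -0.48, limma adjusted p = 0.0711, and 0.0172 without knockdown library a). LMNA was the only partner with a positive value, at 15825 to 20196 in the controls and 20999 to 22761 in the knockdown arm (log2 fold change 0.27, limma adjusted p = 0.12). SUN1, SUN2, BANF1 and LEMD3 had log2 fold changes between -0.38 and -0.14 and limma adjusted p-values between 0.082 and 0.352. The 3 calls depend on the spread of this line: in the fit of all 18 libraries none of them passed (limma adjusted p = 0.78, 0.445 and 0.415 for LMNB1, LMNB2 and LBR). Without control library a or without knockdown library c, LMNB1 alone passed (limma adjusted p of LMNB2 0.0523 and 0.0633, of LBR 0.0934 and 0.103). LMNB2 also missed without control library c (0.0737), and LBR without control library b (0.0925) or knockdown library b (0.114).

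Some proliferation markers fell with the B-type lamins in MCF10CA1H. Of 12 proliferation markers, 4 were lower there (MKI67, MCM2, MCM6 and E2F1) and none higher, beside 4.85% of all genes lower. The others did not pass, and AURKA had a positive value (log2 fold change 0.08, limma adjusted p = 0.581). MKI67, the gene of the Ki-67 antigen of cycling cells, went from 11634, 11509 and 10434 normalized counts to 7994, 6711 and 7025 (log2 fold change -0.63, SE 0.10, limma adjusted p = 0.00256). The summed level of the 12 markers was 45602 to 50132 in the controls and 36155 to 42340 in the knockdown arm. In MCF10AT1 knockdown library c, where LMNB1 was 204, MKI67 was 708, against 6527 and 4681 in libraries a and b. In the MCF10A control libraries MKI67 was 1144, 228 and 40.2 and LMNB1 was 358, 232 and 88.8. The MCF10AT1 controls had MKI67 at 2324, 3187 and 2393 and LMNB1 at 592, 545 and 644. There the library with the most MKI67 had the least LMNB1. The part of proliferation in the LMNB1 values was not tested, and fewer cycling cells and less RNA per cell cannot be told apart in bulk libraries.

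In MCF10A, where EMD was present in both arms, none of the 9 partners passed, against 2.65% of the 15416 genes tested (1.16% higher and 1.49% lower). With the replicate letter as a block the background count went from 409 to 1172 genes, and still no partner passed. At an unadjusted p under 0.05 there was 1 partner, SUN2, with 2352, 2195 and 2362 normalized counts in the controls and 1750, 1976 and 1564 in the knockdown arm (log2 fold change -0.39, 95% interval -0.72 to -0.06, limma adjusted p = 0.202). These SUN2 ranges did not overlap. LMNB1 had the widest interval (log2 fold change 0.85, 95% interval -0.39 to 2.10). The other partners had log2 fold changes between -0.12 and 0.33, and their median with SUN2 and LMNB1 was 0.02.

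**Figure D4:**
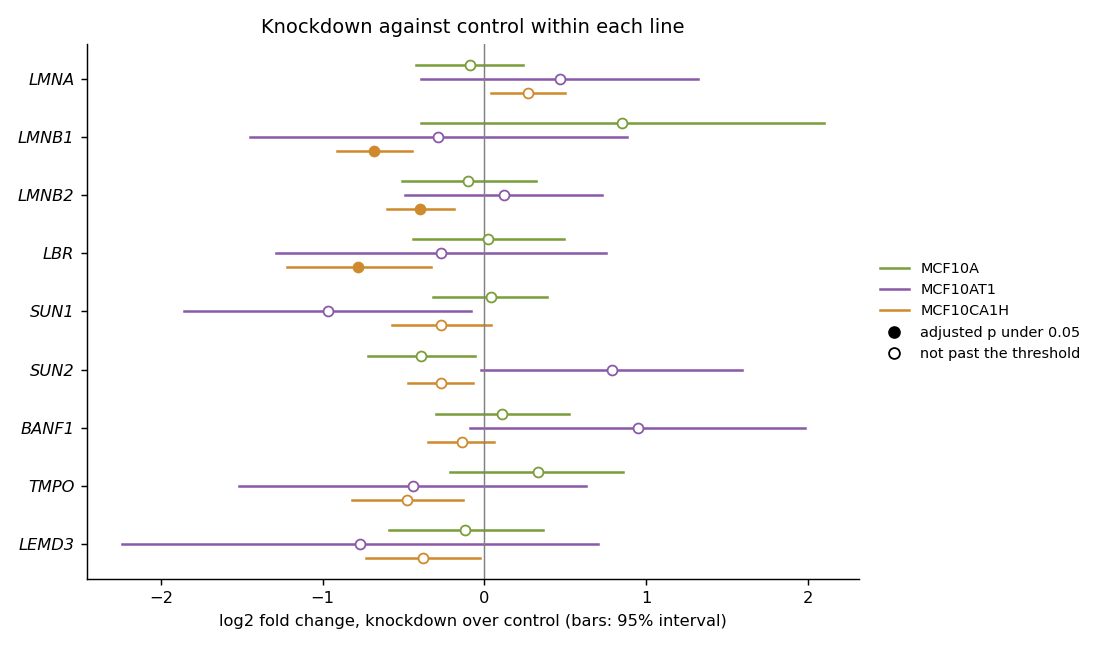
Log2 fold change of each partner gene, knockdown-labelled over control, in the 3 lines, with 95% intervals; filled points have an adjusted p under 0.05 and open points do not. The filled points are LMNB1 (-0.68), LMNB2 (-0.40) and LBR (-0.78) in MCF10CA1H, and the MCF10AT1 intervals are wider than those of MCF10CA1H.

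The knockdown difference itself was compared between lines for each partner, in the fit of all 18 libraries. SUN2 differed between MCF10AT1 and MCF10A by 1.18 (SE 0.32, limma adjusted p = 0.014), 1 of 9 partners against 21.6% of 15897 genes. Of the genes called 51.6% had a higher difference in MCF10AT1, and 39.6% with every library brought to the same sum. Its knockdown mean was 76.6% of control in MCF10A and 171% in MCF10AT1. SUN2 also differed between MCF10CA1H and MCF10AT1 by -1.05 (SE 0.32, limma adjusted p = 0.0308), 1 of 9 against 18.2%. Between MCF10CA1H and MCF10A 0 of 9 differed, against 5.34%, and LMNB1 was the single partner with an unadjusted p under 0.05 (difference -1.53, limma adjusted p = 0.27). So the MCF10CA1H falls of LMNB1, LMNB2 and LBR were not shown to differ from the MCF10A values. The SUN2 difference between MCF10CA1H and MCF10AT1 missed the threshold without any of 6 libraries, knockdown b or c of MCF10AT1 or control a, control c, knockdown a or knockdown b of MCF10CA1H (limma adjusted p between 0.0605 and 0.0783). Leaving out MCF10AT1 control library b brought SUN1, BANF1 and LEMD3 past the threshold beside SUN2 for MCF10AT1 against MCF10A, and leaving out its knockdown library c brought LMNA, SUN1 and BANF1, so that 4 of 9 passed each time. For MCF10CA1H against MCF10AT1, SUN2, SUN1 and BANF1 passed without MCF10AT1 control library b, and BANF1 and LMNB2 without its knockdown library c.

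The 3 control arms form a series from the immortalized line to the xenograft-derived line and were compared in pairs. LMNB1 rose from 226 ± 135 normalized counts in MCF10A to 594 ± 49.95 in MCF10AT1 and 3569 ± 100 in MCF10CA1H (SD, n = 3 each). All of its control libraries in a line lay above all those of the line before. Against MCF10A the log2 difference of LMNB1 was 1.60 in MCF10AT1 (SE 0.41, limma adjusted p = 0.0219) and 4.19 in MCF10CA1H (SE 0.41, limma adjusted p = 1.8e-04). For LMNB2 the means were 2360 ± 67.0, 2702 ± 183 and 6680 ± 309 in the same order, and MCF10CA1H was higher than MCF10A by 1.50 (SE 0.15, limma adjusted p = 1.8e-04). TMPO was 758 ± 75.1, 755 ± 442 and 3124 ± 452 in the same order (log2 difference of MCF10CA1H from MCF10A 2.04, SE 0.36, limma adjusted p = 0.00277). BANF1 was 1373 ± 276, 2668 ± 1249 and 4959 ± 452 (1.87, SE 0.33, limma adjusted p = 0.00256).

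In MCF10CA1H against MCF10A, 4 of 9 partners were thus higher and none lower. Of the 15652 genes tested, 2979 were called higher and 2941 lower, or 37.8% in either direction. A call in either direction for 4 of 9 is near that share. EMD moved the other way between the same libraries. Against MCF10AT1, 4 of 9 partners were higher in MCF10CA1H (LMNB1 by 2.59, TMPO by 2.20, LMNB2 by 1.31 and SUN2 by 0.86). Over all genes tested, 1716 were higher and 1694 lower in that pair, or 21.8% in either direction. LMNA, at 14069 ± 907, 11727 ± 3642 and 18073 ± 2188 normalized counts from MCF10A to MCF10CA1H, did not pass in any pair (limma adjusted p between 0.0705 and 0.324). SUN2 missed the threshold against MCF10AT1 without MCF10AT1 control a or any MCF10CA1H control (limma adjusted p between 0.0689 and 0.101), and also with no filter, with no trend and with equal library sums (0.0505, 0.0503 and 0.0634). With equal sums LMNA passed against MCF10AT1 (log2 difference 0.78, limma adjusted p = 0.00934). The summed proliferation markers were 2387 to 9761 in the MCF10A controls, 13189 to 21525 in those of MCF10AT1 and 45602 to 50132 in those of MCF10CA1H, in the same order as LMNB1, and their part was not tested. These comparisons share control libraries and are not independent of each other.

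In MCF10AT1 against MCF10A, 1 partner was higher, LMNB1, and 1 lower, LEMD3, a count near the 28.1% of genes called in either direction. LEMD3, whose product MAN1 binds SMAD proteins, had 508, 774 and 746 normalized counts in the MCF10A controls and 174, 63.1 and 366 in those of MCF10AT1, without overlap (log2 difference -2.05, SE 0.52, limma adjusted p = 0.0204). Its MCF10CA1H controls lay between, at 424, 543 and 434. Both calls were lost without MCF10A control library b or MCF10AT1 control library a (limma adjusted p between 0.0557 and 0.0758), and LEMD3 also without MCF10A control library c (0.0756). Without MCF10AT1 control library c, 6 of 9 passed, with SUN2, LBR, SUN1 and BANF1 added. That library had the highest SUN1, SUN2, LBR, TMPO, LEMD3, LMNB1 and LMNB2 and the lowest LMNA and BANF1 of its arm.

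**Figure D5:**
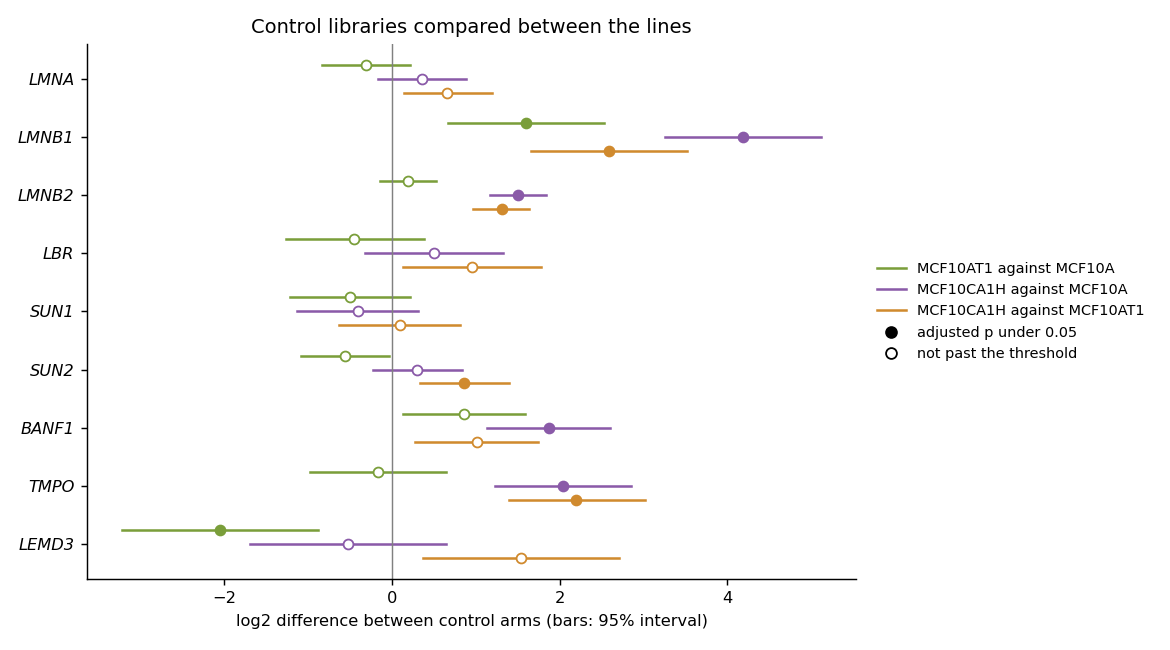
Log2 difference between the control arms of the lines for each partner gene, with 95% intervals, filled where the adjusted p was under 0.05. LMNB1, LMNB2, TMPO and BANF1 are higher in MCF10CA1H than in MCF10A, by 1.50 to 4.19 on the log2 scale, and LEMD3 is lower in MCF10AT1 than in MCF10A (-2.05).

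The 5 genes whose log2 profile over the 18 libraries lay nearest to that of EMD were RAB25, SLC6A11, TMEM30B, ZNF558 and ENSG00000287906. Their root mean square differences from EMD, after centring, were 1.00, 1.23, 1.24, 1.44 and 1.50 on the log2 scale. They lie on chromosomes 1, 3, 14, 19 and 11, none with EMD. RAB25, a small GTPase gene of epithelial endosomes, had 1010 to 2054 normalized counts in the 6 MCF10A libraries and 2037 to 4741 in the MCF10AT1 controls. It had 1.76 to 4.5 in the MCF10AT1 knockdown arm and 0 to 10.2 in MCF10CA1H. SLC6A11, a GABA transporter gene, had 418 to 848 where EMD was present and 0.83 to 2.92 where it was not. TMEM30B, a subunit gene of phospholipid flippases, was listed at 0 in all 6 MCF10CA1H libraries and had 103 to 486 in the 9 libraries with EMD. None of the partners was among these 5 genes.

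A count of genes that were under 5 normalized counts in all 9 libraries without EMD and over 100 in all 9 with it, made after the values were seen, found 3 in the table: EMD, SLC6A11 and TMEM30B. The reverse pattern was held by 1 gene, NES, which encodes the intermediate filament protein nestin. The mean absolute log2 difference over 15897 genes was 1.04 between the MCF10AT1 knockdown arm and the MCF10CA1H controls, 0.98 between the MCF10AT1 arms and 0.86 between the MCF10AT1 and MCF10CA1H controls. The MCF10AT1 knockdown arm was 1.46 from the MCF10A controls and 1.43 from the MCF10A knockdown arm. Within MCF10A the arms differed by 0.47, and within MCF10CA1H by 0.39.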

How the data were processed

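Libraries were made by the authors with an rRNA-depleted, stranded total RNA kit, although a heading and the labels name polyA RNA. Reads were pseudo-aligned by the authors to the hg38 transcriptome with kallisto 0.46.1, summed to genes and normalized with DESeq2 1.26.0 in R 4.1.1. The deposited values are these normalized counts, a signal that is not a count of reads. The strand setting and annotation version are not given in the sources used here. The members, lists and tests were chosen with earlier results of these data known.

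Values were read for 35933 genes, and 24646 rows without values were left out. Genes whose mean reached 10 across a fit's libraries were tested in R 4.3.3 with limma 3.58.1 (lmFit, eBayes with intensity trend) on log2(value + 1). P-values are two-sided and Benjamini-Hochberg adjusted over all genes tested, with a threshold of 0.05. Each line was fitted alone (6 libraries), the controls together (9 libraries) and the differences between lines over 18 libraries. Intervals are 95%. The test was checked on data simulated from MCF10A, with large changes and the same spread for every gene. That check does not cover smaller changes or the wider spread of MCF10AT1. Size factors computed on the table were 1.013 to 1.018. Positions are from GENCODE v44 (hg38), and promoters from RefSeq (GRCh38.p14).

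Named genes are the members, METTL3, the 5 measured genes nearest EMD on each side (1 of them is not reported here), the 5 genes of nearest profile, and up to 4 genes past the threshold in each list and line, by size of change, with the few others that a result turned on. The endothelial and leukocyte lists, tested for 1 to 3 and 1 to 2 genes per line, had PECAM1 lower and CD68 higher in MCF10CA1H as their calls. In MCF10CA1H 5 of 10 epithelial markers were higher, and of 8 mesenchymal markers tested 2 were higher and 1 lower. Over all genes 7.91% were higher and 4.85% lower in that line. In MCF10A KRT5 was the 1 of 10 epithelial markers called, higher, beside 1.16% of genes. In MCF10A, deviations of libraries with the same letter correlated weakly (r = 0.233, 0.228 and 0.130 for a, b and c), and each control correlated best with its own letter. The design does not give a pairing, so a pairing by letter is not settled there. Alternatives were other pseudocounts, filters, scalings, a fit without trend, a joint fit, the letter as a block and each library left out.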

Additional observations from a re-analysis of the deposited data

Results flagged for a closer look

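The knockdown difference of SUN2 was not the same between lines, by the test of the difference itself. Between MCF10AT1 and MCF10A it differed by 1.18 on the log2 scale (limma adjusted p = 0.014). Between MCF10CA1H and MCF10AT1 it differed by -1.05 (limma adjusted p = 0.0308). Both use the same MCF10AT1 libraries. With every library brought to the same sum they were 0.93 and -0.95 and missed the threshold (limma adjusted p = 0.131 and 0.139). In no line alone did SUN2 pass the test on the values as deposited. With equal sums it passed in MCF10CA1H (log2 fold change -0.32, limma adjusted p = 0.0371).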

How the results depend on the processing

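Of 1550 recomputed fold changes over 93 results, 1446 kept their direction and side of the threshold, 37 newly passed, 40 no longer passed and 27 changed sign, none of these 27 being called. Partner counts were the same within 1.5 times in MCF10A and for the MCF10CA1H and MCF10A controls under every alternative. In MCF10AT1, 0 partners passed and 3 did in the joint fit. In MCF10CA1H, 3 passed, 1 without trend, 0 in the joint fit, 1 at an adjusted p under 0.01, and 1 to 4 with a library left out. For the MCF10AT1 and MCF10A controls 2 passed, 1 with equal sums, 0 at 0.01 and 0 to 6 with a library left out. For the MCF10CA1H and MCF10AT1 controls 4 passed, 8 in the joint fit and 3 to 6 with a library left out. For the differences between lines, MCF10AT1 against MCF10A gave 1, 0 with equal sums, 0 at 0.01 and 1 to 4 with a library left out, and MCF10CA1H against MCF10AT1 gave 1, 0 with no filter, 0 with equal sums, 0 at 0.01 and 0 to 3 with a library left out. A pseudocount of 5 put EMD in MCF10AT1 at -7.78, and leaving out a library gave -9.93 to -8.88. The cause was not tested.

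With the replicate letter as a block, calls over all genes went from 409 to 1172 in MCF10A, 2091 to 3939 in MCF10AT1 and 1929 to 1876 in MCF10CA1H. The letters do not pair the MCF10CA1H libraries (lowest r = -0.0381). In MCF10AT1 r was 0.0974, 0.272 and 0.473 for a, b and c, and each control correlated best with its own letter. A pairing by letter in MCF10AT1 is thus not settled, and both fits are given. The block gave 2 partners in MCF10AT1 (SUN1 and BANF1, limma adjusted p = 0.0198 and 0.0165), 3 for MCF10AT1 against MCF10A and 2 for MCF10CA1H against MCF10AT1, and changed no other partner count by over 1.5 times.

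Equal sums moved the median of all genes by over 0.1 in MCF10AT1 (0.02 to -0.15), between controls of MCF10AT1 and MCF10A (-0.01 to -0.15) and of MCF10CA1H and MCF10AT1 (0.05 to 0.16), and in the 3 differences between lines. It put LMNB2 at -0.04 in MCF10AT1 and at -0.03 for MCF10AT1 against MCF10A, SUN2 at -0.02 for MCF10CA1H against MCF10A, and TMPO at 0.07 for MCF10CA1H against MCF10AT1. Leaving out a library changed the sign in MCF10A of EMD (-0.05 to 0.21), LMNB2 (-0.24 to 0.08), LBR (-0.10 to 0.18) and SUN1 (-0.06 to 0.13). In MCF10AT1 it did so for LMNB1 (-0.63 to 0.34), LBR (-0.59 to 0.20) and TMPO (-0.85 to 0.00). Between controls it did so for TMPO (-0.61 to 0.24, MCF10AT1 against MCF10A) and SUN1 (-0.22 to 0.48, MCF10CA1H against MCF10AT1). Between differences it did so for LBR (-0.61 to 0.18, MCF10AT1 against MCF10A) and, for MCF10CA1H against MCF10AT1, LMNA (-0.51 to 0.03), TMPO (-0.48 to 0.37) and LEMD3 (-0.21 to 1.05). The depth per gene is unknown, so values near 0 carry no counting interval.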
